A study of Homo sapiens with 8 samples.

Results

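The clade B serpins described here are SERPINB1, SERPINB2, SERPINB3, SERPINB4, SERPINB5, SERPINB7, SERPINB8, SERPINB11, SERPINB12 and SERPINB13. They were found by gene name in the deposited table of RPKM (read number divided by gene length and by library size), where all 10 are listed among 25369 genes. RNA was sequenced from HIF1A-KD cells (4 libraries), which stably carry a lentiviral short hairpin RNA against HIF1A, and from shCtrl cells (4 libraries), which carry a control hairpin. Both are EPC2-hTERT, telomerase-immortalised epithelial cells of the human esophagus. Both were grown on membranes for 2 days, given 1.8 mM calcium chloride for 5 days and then air on the upper side for 4 days, which lets such cells form layers. DMSO and dimethyloxalylglycine (an inhibitor of HIF hydroxylases) appear in the treatment text, but no library is assigned to either. They say neither how many clones make up a line nor whether libraries of a group came from separate cultures, so p-values measure the spread between these libraries, which may be technical.

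Serpins are protease inhibitors that expose a flexible loop as bait. A protease that cuts this loop is trapped by a large change in the serpin's shape, while some family members have lost this activity and act in other ways. Clade B members mostly lack a secretion signal and work inside the cell, and squamous epithelia express many of them during stratification. Most of the human genes sit side by side on chromosome 18 and the others on chromosome 6.

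By the deposited coordinates, 9 of the 10 genes lie within 512465 bases of chromosome 18 (61144144 to 61656608, hg19), and SERPINB1 lies on chromosome 6 (2832566 to 2842283, minus strand). Along chromosome 18 the order is SERPINB5, SERPINB12, SERPINB13, SERPINB4, SERPINB3, SERPINB11, SERPINB7, SERPINB2 and SERPINB8. SERPINB4 (61304493 to 61311502) and SERPINB3 (61322431 to 61329197) are neighbours on the minus strand, 10928 bases apart, and the other 7 are on the plus strand.

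SERPINB3 and SERPINB4 are near-copies, and their sequences are shown because the largest ratio between the groups fell on one of them. The coding sequences of their longest annotated transcripts (GENCODE release 29) were both 1173 bases long and differed at 56 bases, an identity of 95.2%. Over the 45 pairs of members the next highest identity was 68.5%, between SERPINB3 and SERPINB13. The 90 coding bases with the most differences (13, against a median of 3 over all such windows) ran from base 970 to base 1059, counted from the A of the start codon. In the lines that follow, capitals mark the bases that differ between the genes.
SERPINB3: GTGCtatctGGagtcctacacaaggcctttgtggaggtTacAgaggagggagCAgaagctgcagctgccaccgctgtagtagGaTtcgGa
SERPINB4: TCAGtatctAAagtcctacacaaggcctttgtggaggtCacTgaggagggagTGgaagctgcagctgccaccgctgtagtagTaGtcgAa

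Reads could in part be shared between these genes. Of the 1700 stretches of 50 bases in the longest SERPINB4 transcript, 24.3% occurred exactly in a SERPINB3 transcript, and 3.45% of its stretches of 100 bases did. No other pair of members shared an exact stretch of 50 bases. The read length and the treatment of reads with several matches are not given in the sources used here, so SERPINB4 values are uncertain where SERPINB3 is abundant.

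The promoters were closer still, with 3 differences in the 250 bases before the start site (98.8% identity). The lines give the RefSeq sequence of build GRCh38.p14, from chr18:63661894-63662143 for SERPINB3 and chr18:63644257-63644506 for SERPINB4, both read on the minus strand, with differing bases in capitals.
SERPINB3: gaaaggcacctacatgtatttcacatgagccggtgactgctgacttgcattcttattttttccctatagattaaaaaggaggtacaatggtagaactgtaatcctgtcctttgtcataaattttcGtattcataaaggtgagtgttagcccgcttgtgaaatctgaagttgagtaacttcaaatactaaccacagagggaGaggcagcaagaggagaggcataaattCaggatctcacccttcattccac
SERPINB4: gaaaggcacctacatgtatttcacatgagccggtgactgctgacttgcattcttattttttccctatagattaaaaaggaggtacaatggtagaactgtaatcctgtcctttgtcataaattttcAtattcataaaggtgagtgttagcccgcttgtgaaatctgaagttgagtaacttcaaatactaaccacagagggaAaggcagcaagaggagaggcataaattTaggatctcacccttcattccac

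Promoter windows (250 bases before and 50 after the start) were found in RefSeq for 9 of the 10 members, and were searched on both strands. The hypoxia response core ACGTG was found in 1 of these 9 (SERPINB8), against 21.4% of 35116 windows of all genes, and the core GCGTG in 3 (SERPINB1, SERPINB5 and SERPINB13), against 36.5%. The AP-1 motif TGANTCA was found in 6 of 9 members (SERPINB2, SERPINB5, SERPINB7, SERPINB8, SERPINB12 and SERPINB13), against 7.71% of windows, and the STAT motif TTCNNNGAA in 4, against 7.66%. The SERPINB3 and SERPINB4 windows held none of these motifs. SERPINB7 and SERPINB12 have more than 1 window, and a match in any was counted, while the shares of all genes are per window. Counted per window, ACGTG was in 1 of 12 member windows, GCGTG in 3, the AP-1 motif in 7 and the STAT motif in 4.

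Library sizes implied by the RPKM scaling ran from 38068729 reads (HIF1A-KD 4) to 65326907 reads (HIF1A-KD 2). HIF1A, the targeted gene, held 27.6, 19.0, 54.8 and 45.0 RPKM in HIF1A-KD libraries 1 to 4, against 95.2, 51.4, 89.8 and 122 RPKM in shCtrl 1 to 4. It was lower in HIF1A-KD at each number, and the ranges overlapped at HIF1A-KD 3 and shCtrl 2 (log2 change −1.34, limma adjusted p = 0.319 unpaired, 0.0253 with the library number as a block). All 8 squamous markers were present, with summed levels of 21568 to 27020 RPKM in HIF1A-KD and 20285 to 26429 RPKM in shCtrl. The leukocyte markers PTPRC and CD3E were at 0 in every library, and 1 marker of 6 reached a mean of 0.5 RPKM (CD68, a lysosomal protein). COL1A1 was likewise the only fibroblast marker of 6 above that level, with a summed list at 14.1 to 19.2 RPKM in HIF1A-KD and 21.2 to 27.7 RPKM in shCtrl, whose part in the results was not tested. Of the endothelial and melanocyte markers 1 of 4 each reached 0.5 RPKM, and of the columnar markers 0 of 5. In bulk RNA fewer cells of a type and less RNA per cell cannot be told apart. Libraries 1 and 2 differed from 3 and 4 in both groups, so values are given by number.

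Of the 9 members that passed the filter on low values (at least 0.5 RPKM in at least 4 libraries), 0 passed the unpaired limma test at an adjusted p of 0.05, where 0.0420% of 11899 tested genes passed. At an unadjusted p of 0.05, 4 of the 9 passed, against 7.80% of tested genes. The paired fit here means limma with a block term for library number. It called SERPINB3 and SERPINB11 higher and SERPINB7 lower. That was 3 of 9 members, against 1.83% of tested genes (0.740% higher and 1.09% lower). The labels do not say that equal numbers form pairs. Deviations from the group means correlated at 0.754 and 0.730 within numbers 1 and 2, but at 0.252 and 0.257 within 3 and 4. Crossed matches were closer there, at 0.613 (HIF1A-KD 3 with shCtrl 4) and 0.463 (HIF1A-KD 4 with shCtrl 3). The paired calls therefore rest on a pairing that is uncertain for numbers 3 and 4. The count test on recovered reads, limma-voom, called 0 members unpaired, against 0.0254% of genes, and 3 with the block, against 2.91%; without the low-value filter the block called 1 member, SERPINB11, against 0.121%. HIF1A-KD was higher at all 4 numbers for SERPINB3, SERPINB11 and SERPINB12, against 18.6% of tested genes, and lower at all 4 for SERPINB7, against 10.7%. The median log2 change of the 9 was 0.17, and that of all tested genes 0.06. SERPINB4 missed the filter, since HIF1A-KD 1 and all shCtrl libraries were under 0.5 RPKM, and is described by its own values. Ranges of the groups did not overlap for SERPINB7 and SERPINB11 among the tested members, against 5.40% of tested genes (3.27% higher and 2.13% lower), nor for SERPINB4.

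**Figure D1:**
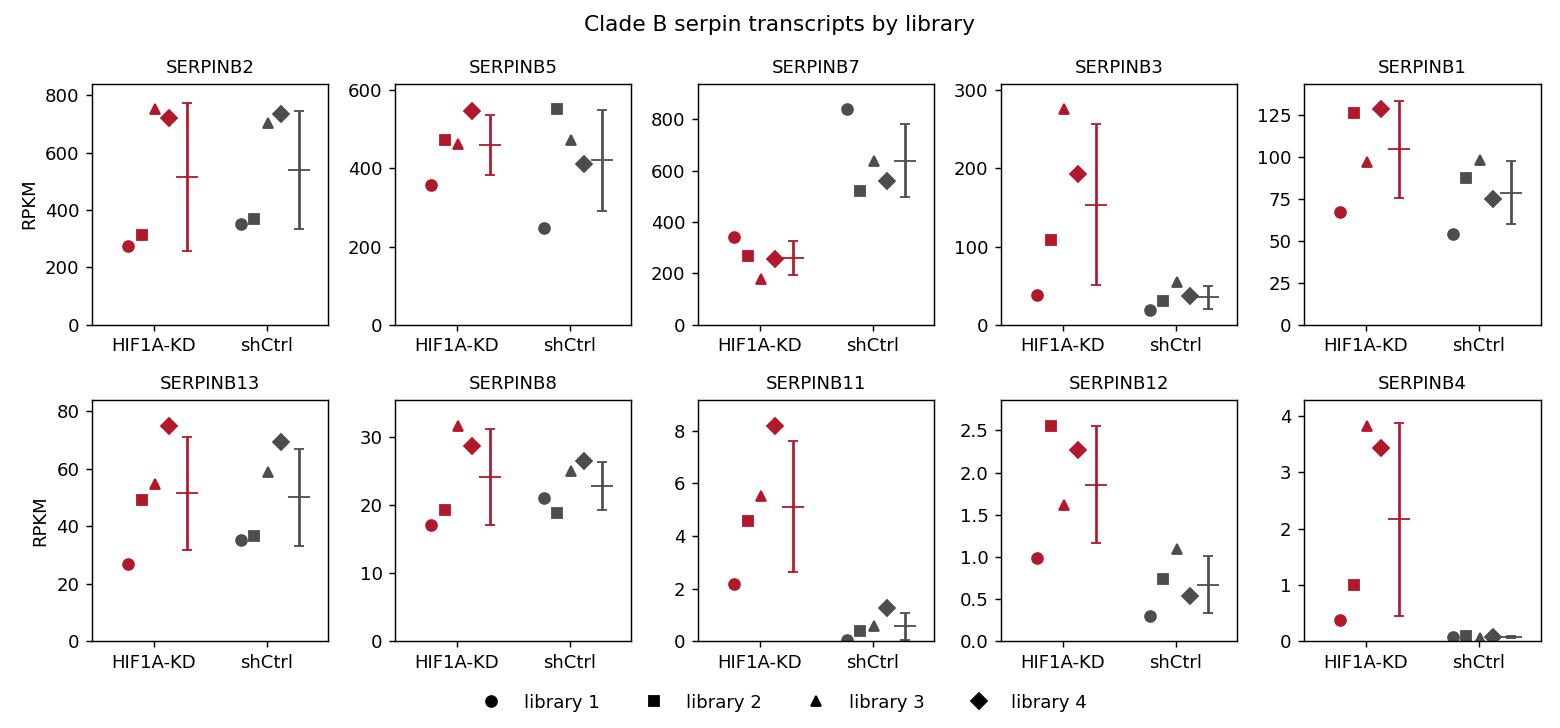
RPKM (y axis, from 0) of the 10 clade B serpins in HIF1A-KD (red) and shCtrl (grey). Symbols mark libraries 1 to 4, and the horizontal mark and bar give the mean and SD of 4 libraries. SERPINB7 is lower and SERPINB11 and SERPINB4 are higher in all HIF1A-KD libraries, while SERPINB2 separates libraries 1 and 2 from 3 and 4 in both groups.

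Among inhibitors of cysteine proteases, SERPINB3, which blocks cathepsins such as L, K and S, was higher in HIF1A-KD. It held 37.4, 109, 275 and 193 RPKM in HIF1A-KD libraries 1 to 4, against 18.8, 30.0, 54.5 and 36.9 RPKM in shCtrl 1 to 4. HIF1A-KD was higher at each number, and only HIF1A-KD 1 lay within the shCtrl range. The means were 154 ± 103 RPKM in HIF1A-KD and 35.03 ± 14.98 RPKM in shCtrl (SD, n = 4 each), a ratio of 4.38. The log2 change was 1.89 (SE 0.58 unpaired, 0.24 paired). Its limma adjusted p was 0.377 unpaired and 0.0259 in the paired fit. The ratio was 1.99, 3.63, 5.05 and 5.23 at numbers 1 to 4, so the smallest was at number 1. The paired call rested on several numbers. In this fit, leaving out either library of a number takes the whole pair out of the comparison of the groups. Without HIF1A-KD 2 the limma adjusted p was 0.174 and without shCtrl 2 it was 0.173. The paired fit then called 1 and 5 genes in all, against 218 with every library. For SERPINB3 the limma adjusted p was 0.0591 and 0.0599 without HIF1A-KD 3 or shCtrl 3, and 0.0544 and 0.0560 without HIF1A-KD 4 or shCtrl 4.

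SERPINB4, the near-copy of SERPINB3 that inhibits cathepsin G and mast cell chymase, was almost silent in shCtrl. It held 0.38, 1.01, 3.82 and 3.44 RPKM in HIF1A-KD libraries 1 to 4, against 0.072, 0.094, 0.067 and 0.073 RPKM in shCtrl 1 to 4. The recovered reads behind these values were 30, 113, 310 and 225 in HIF1A-KD, against 6, 7, 6 and 6 in shCtrl. All HIF1A-KD libraries were above all shCtrl libraries. HIF1A-KD 3 and 4 were above HIF1A-KD 1 and 2, while the shCtrl libraries all held a few reads. The ratio of means was 28.3, with 5.31, 10.7, 57.4 and 47.1 at numbers 1 to 4. The difference of mean log2(RPKM + 0.1) was 3.23, and it was 1.37 with a pseudocount of 1 and 4.14 with 0.01. A two-sided exact permutation test over the 8 libraries gave p = 0.0286, the smallest that 4 against 4 allow. In fits of all genes without the filter, the limma adjusted p of SERPINB4 was 0.263 unpaired and 0.149 with the number as a block.

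SERPINB4 did not keep a fixed proportion to SERPINB3. Its RPKM was 1.02%, 0.93%, 1.39% and 1.78% of that of SERPINB3 in HIF1A-KD 1 to 4, against 0.38%, 0.31%, 0.12% and 0.20% in shCtrl 1 to 4. The mean share was 1.28 ± 0.39% in HIF1A-KD and 0.25 ± 0.12% in shCtrl (SD, n = 4 each), with no overlap. The exact permutation test of the log2 share gave p = 0.0286, two-sided, which the lack of overlap fixes. This test was chosen after the values were seen. Within shCtrl, SERPINB3 reads ran from 1614 to 5076 while SERPINB4 reads stayed at 6 or 7.

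**Figure D2:**
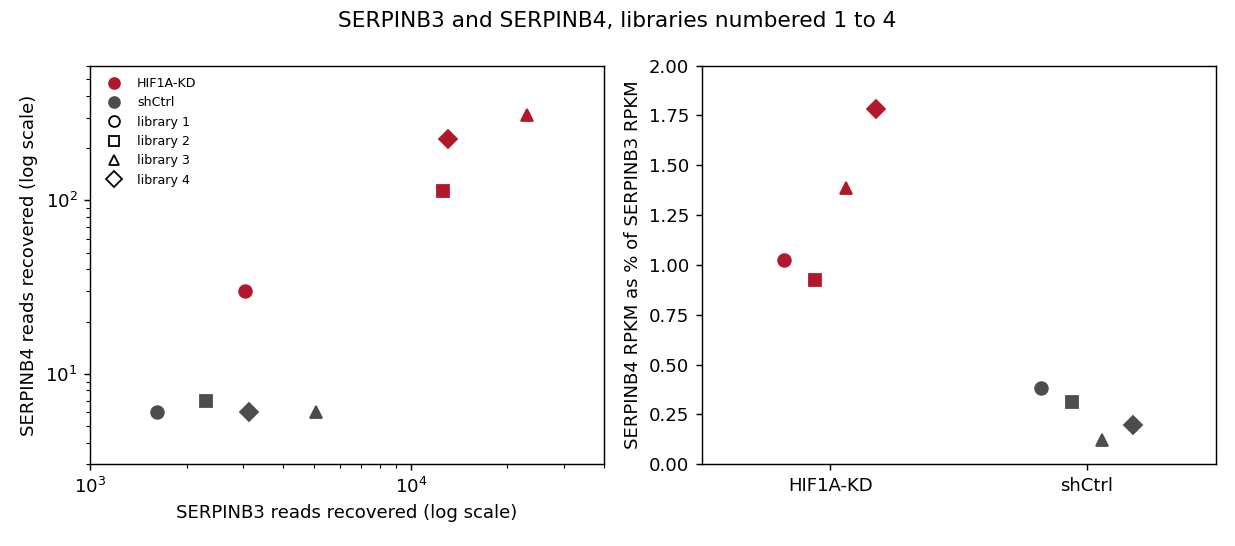
Left, recovered SERPINB4 reads against recovered SERPINB3 reads in each library, both axes on a log scale, with HIF1A-KD in red and shCtrl in grey. Right, SERPINB4 RPKM as a percent of SERPINB3 RPKM (y axis from 0), where the 4 HIF1A-KD libraries lie between 0.93% and 1.78% and all shCtrl libraries at or below 0.38%.

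SERPINB13, which also inhibits cathepsins L and K, showed no such difference. It held 26.8, 49.3, 54.7 and 74.9 RPKM in HIF1A-KD libraries 1 to 4, against 35.2, 36.6, 59.0 and 69.5 RPKM in shCtrl 1 to 4. Libraries 3 and 4 were the highest of each group, and the groups overlapped throughout. The log2 change was 0.01 (SE 0.34; limma adjusted p = 1.00 unpaired, 0.979 paired), and its sign turned under median-of-ratios scaling (−0.06).

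The largest fall among the members was in SERPINB7, also called megsin, an inhibitor in the upper epidermis whose loss causes a palmoplantar keratosis in humans. It held 341, 269, 179 and 255 RPKM in HIF1A-KD libraries 1 to 4, against 838, 522, 639 and 557 RPKM in shCtrl 1 to 4. Every HIF1A-KD library was below every shCtrl library. The means were 261 ± 66.4 RPKM in HIF1A-KD and 639 ± 141 RPKM in shCtrl (SD, n = 4 each), so the HIF1A-KD mean was 40.9% of the shCtrl mean. The log2 change was −1.30 (SE 0.24 unpaired, 0.15 paired). The limma adjusted p was 0.107 unpaired and 0.0196 in the paired fit. The paired call was lost without HIF1A-KD 1 (0.104), HIF1A-KD 2 (0.101), shCtrl 1 (0.103) or shCtrl 2 (0.10). The fall was −1.12 among libraries numbered 1 and 2 and −1.48 among those numbered 3 and 4, as log2 changes.

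SERPINB11, whose human protein is thought to lack inhibitory activity, had the largest log2 change of the tested members. It held 2.16, 4.57, 5.50 and 8.18 RPKM in HIF1A-KD libraries 1 to 4, against 0.054, 0.40, 0.57 and 1.27 RPKM in shCtrl 1 to 4. The lowest HIF1A-KD library was above the highest shCtrl library, and within each group library 1 was lowest and library 4 highest. The means were 5.10 ± 2.49 RPKM in HIF1A-KD and 0.57 ± 0.51 RPKM in shCtrl (SD, n = 4 each), a ratio of 8.93. The ratio at number 1 (40.1) rests on 5 recovered reads in shCtrl 1, and it was 11.5, 9.70 and 6.46 at numbers 2 to 4. The log2 change was 3.19 (SE 0.65 unpaired, 0.26 paired), and 1.91 with a pseudocount of 1. The limma adjusted p was 0.160 unpaired and 0.00608 in the paired fit. The paired call was lost without HIF1A-KD 2 (0.0976) or shCtrl 2 (0.0804).

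SERPINB12, an inhibitor of trypsin-like serine proteases, was expressed at a low level. It held 0.99, 2.55, 1.62 and 2.26 RPKM in HIF1A-KD libraries 1 to 4, against 0.31, 0.74, 1.10 and 0.53 RPKM in shCtrl 1 to 4. HIF1A-KD was higher at each number, and HIF1A-KD 1 lay below shCtrl 3. The log2 change was 1.38 (SE 0.42 unpaired; 0.76 with a pseudocount of 1), with a limma adjusted p of 0.373 unpaired and 0.0772 in the paired fit, so it passed neither. It passed the paired fit without HIF1A-KD 3 (0.0446) or shCtrl 3 (0.0443).

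**Figure D3:**
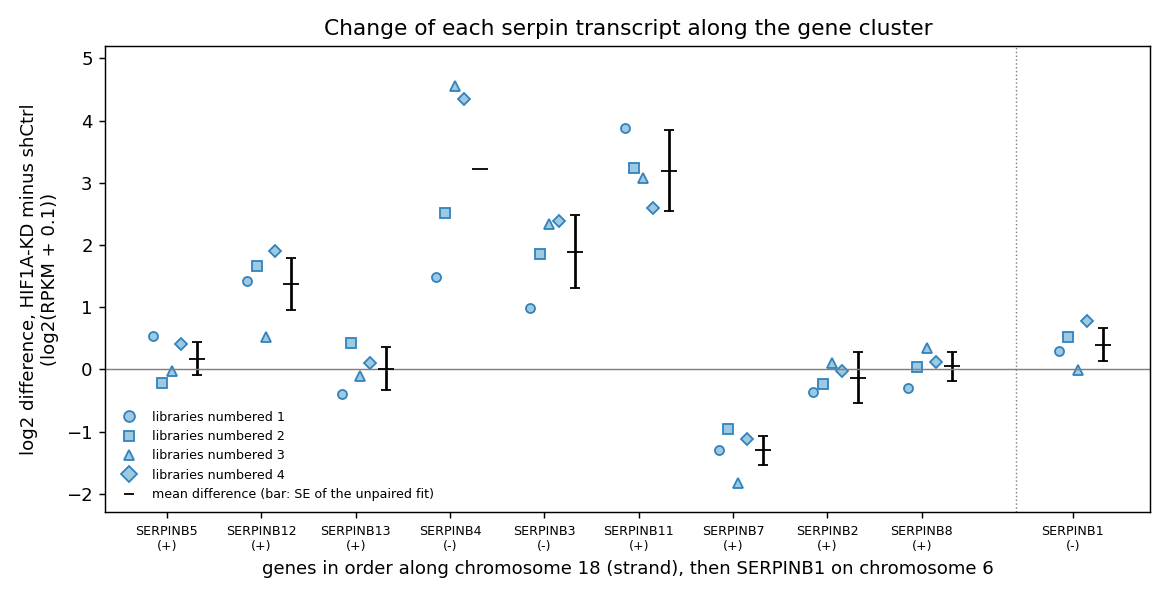
Log2 difference, HIF1A-KD minus shCtrl on the log2(RPKM + 0.1) scale (y axis), for each gene in its order along chromosome 18 with its strand, and for SERPINB1 on chromosome 6. Blue symbols are libraries of the same number set against each other, black marks the mean difference and bars the SE of the unpaired fit (none for SERPINB4, which was not tested). The adjacent genes SERPINB4, SERPINB3 and SERPINB11 are above 0 at every number, and their neighbour SERPINB7 is below 0 at every number.

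The serine protease inhibitors SERPINB2 and SERPINB1 and the furin inhibitor SERPINB8 did not pass either fit. SERPINB2, which inhibits the plasminogen activator urokinase, held 273, 312, 751 and 723 RPKM in HIF1A-KD libraries 1 to 4, against 352, 370, 703 and 734 RPKM in shCtrl 1 to 4. Libraries 3 and 4 held more than libraries 1 and 2 in both groups, and the groups overlapped. The log2 change was −0.13 (SE 0.41; limma adjusted p = 0.992 unpaired, 0.518 paired). SERPINB1, an inhibitor of neutrophil elastase, averaged 105 ± 28.9 RPKM in HIF1A-KD and 78.7 ± 18.8 RPKM in shCtrl (SD, n = 4 each; log2 change 0.40, SE 0.26, limma adjusted p = 0.826 unpaired, 0.189 paired). It was higher in HIF1A-KD at 3 of 4 numbers. SERPINB8 averaged 24.2 ± 7.07 RPKM in HIF1A-KD and 22.9 ± 3.55 RPKM in shCtrl (log2 change 0.05, limma adjusted p = 0.997 unpaired, 0.864 paired).

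SERPINB5, or maspin, is an epithelial serpin without inhibitory activity. It held 358, 474, 463 and 546 RPKM in HIF1A-KD libraries 1 to 4, against 248, 551, 472 and 413 RPKM in shCtrl 1 to 4. HIF1A-KD was higher at 2 of 4 numbers, and the log2 change was 0.17 (SE 0.26; limma adjusted p = 0.975 unpaired, 0.544 paired). Without shCtrl 1, its lowest library, the log2 change was −0.06.

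As levels per gene length, the same 3 genes dominated both groups. SERPINB2, SERPINB5 and SERPINB7 together made up 74.8 to 86.5% of the summed RPKM of the 10 members in HIF1A-KD, against 88.4 to 91.7% in shCtrl. These shares did not overlap. They were chosen after the values were seen, and without overlap the exact permutation p (two-sided, log2 shares) can only be 0.0286. It therefore adds nothing to the ranges. The summed level of all 10 was 1125, 1367, 1864 and 1963 RPKM in HIF1A-KD 1 to 4, against 1567, 1617, 2052 and 1913 RPKM in shCtrl 1 to 4, with overlapping groups (exact permutation p = 0.400). Shares of the sum were compared for 4 members, also chosen after the values were seen. SERPINB7 made up 18.2 ± 9.14% in HIF1A-KD and 36.5 ± 11.4% in shCtrl (SD, n = 4 each; exact permutation p = 0.0571), and SERPINB3 made up 8.97 ± 4.74% in HIF1A-KD and 1.91 ± 0.60% in shCtrl (exact permutation p = 0.0286). The SERPINB3 shares did not overlap, which again fixes that p. For the SERPINB3 level itself the exact permutation p was 0.0571. A change in any member also moves the shares of the others. SERPINB2 made up 31.1 ± 8.79% in HIF1A-KD and 29.5 ± 8.05% in shCtrl (exact permutation p = 0.629), and SERPINB5 made up 29.8 ± 4.32% in HIF1A-KD and 23.6 ± 7.63% in shCtrl (exact permutation p = 0.171). The ratio of SERPINB7 to SERPINB3 was 9.13, 2.48, 0.65 and 1.32 in HIF1A-KD 1 to 4, against 44.7, 17.4, 11.7 and 15.1 in shCtrl 1 to 4. In HIF1A-KD 3 SERPINB3 was the more abundant of the pair, which held for no other library.

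**Figure D4:**
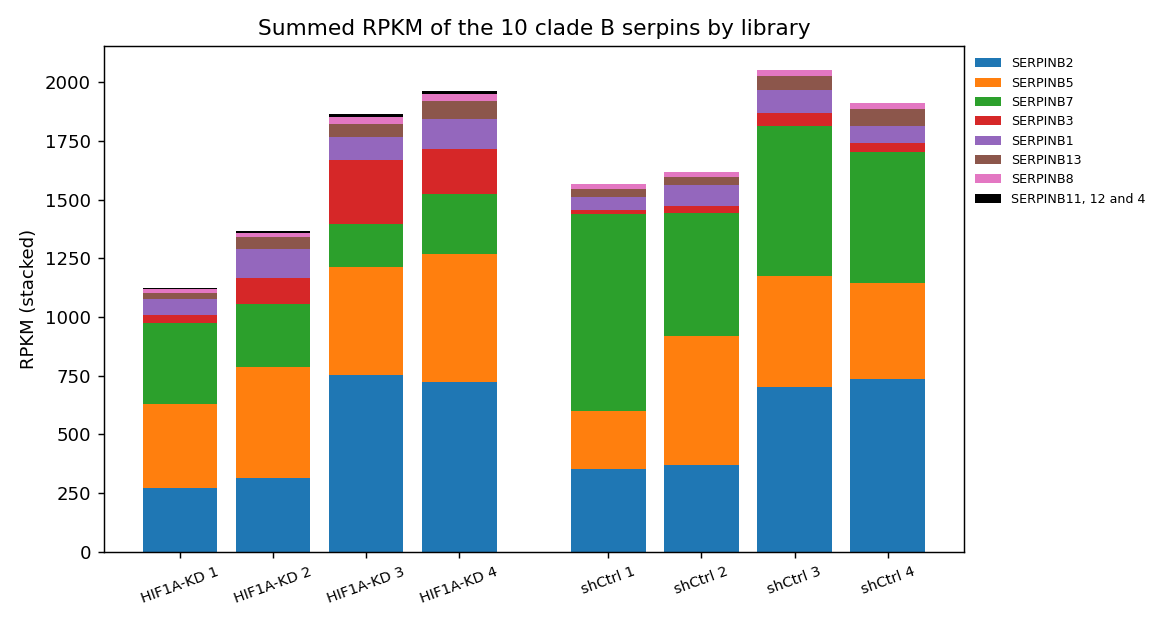
Stacked RPKM of the 10 serpins (y axis, from 0) in each HIF1A-KD and shCtrl library. The SERPINB7 block is smaller and the SERPINB3 block larger in each HIF1A-KD library than in the shCtrl library of the same number, and the sums run from 1125 to 1963 RPKM in HIF1A-KD and from 1567 to 2052 RPKM in shCtrl.

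The order of mean levels in HIF1A-KD was SERPINB2, SERPINB5, SERPINB7, SERPINB3, SERPINB1, SERPINB13, SERPINB8, SERPINB11, SERPINB4 and SERPINB12. Among these neighbours in HIF1A-KD, ranges over the 4 libraries parted between SERPINB5 and SERPINB7 and between SERPINB8 and SERPINB11, and overlapped elsewhere. In shCtrl the order was SERPINB7, SERPINB2, SERPINB5, SERPINB1, SERPINB13, SERPINB3, SERPINB8, SERPINB12, SERPINB11 and SERPINB4, with ranges parted between SERPINB5 and SERPINB1 and between SERPINB8 and SERPINB12.

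Several members differed between libraries 1 and 2 and libraries 3 and 4 within both groups. On the log2 scale SERPINB2 was higher in libraries 3 and 4 than in 1 and 2 by 1.33 in HIF1A-KD and by 0.99 in shCtrl, SERPINB13 by 0.81 and 0.83, and SERPINB11 by 1.07 and 1.79. SERPINB7 went the other way, with −0.50 in HIF1A-KD and −0.15 in shCtrl. For SERPINB4 the difference was 2.35 in HIF1A-KD and −0.11 in shCtrl, and for SERPINB3 it was 1.85 in HIF1A-KD and 0.92 in shCtrl. SERPINB1, SERPINB5, SERPINB8 and SERPINB12 were higher in libraries 3 and 4 by 0.25 to 0.73 in HIF1A-KD and by 0.26 to 0.58 in shCtrl. The labels give no reason for the split of the numbers. With the split as a term in place of the block, limma called SERPINB7 (adjusted p = 0.0302) and SERPINB11 (0.0286) among the members.

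**Figure D5:**
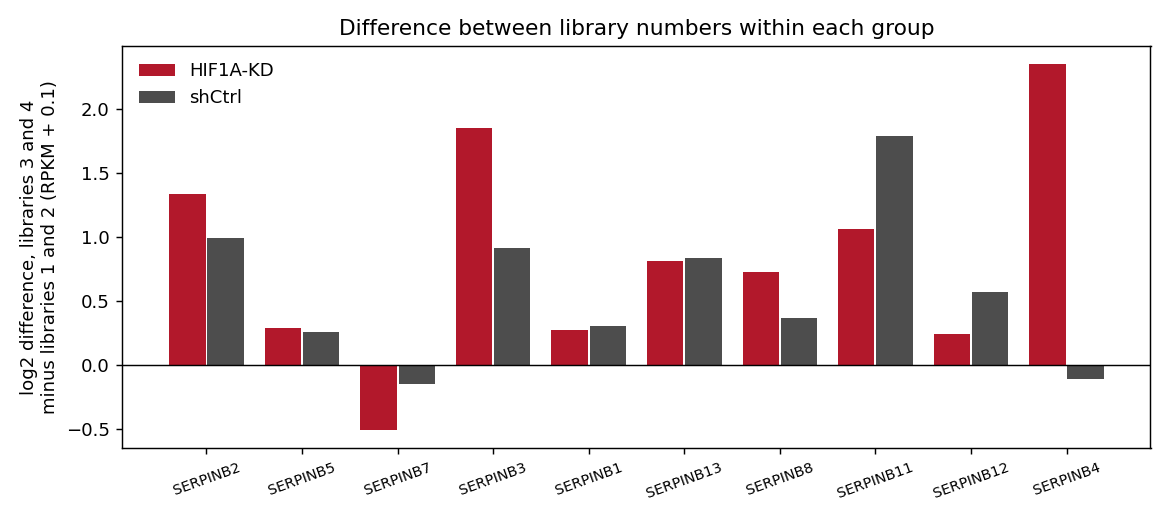
Difference of mean log2(RPKM + 0.1) between libraries 3 and 4 and libraries 1 and 2 (y axis) for each serpin, within HIF1A-KD (red) and within shCtrl (grey). Bars are differences of means of 2 libraries, with no error. SERPINB7 is below 0 in both groups, and SERPINB4 is at 2.35 in HIF1A-KD and −0.11 in shCtrl.

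Across the 8 libraries the log2 levels of SERPINB3, SERPINB11 and SERPINB12 went together (Pearson r between 0.86 and 0.88 for each pair), and SERPINB7 ran against them (r from −0.83 to −0.93). After the group means were subtracted these values were smaller, with r between 0.63 and 0.70 among SERPINB3, SERPINB11 and SERPINB12, and −0.79, −0.68 and −0.45 between SERPINB7 and SERPINB3, SERPINB11 and SERPINB12 in that order. By the same measure SERPINB3 stood closer to SERPINB2 (0.87) and SERPINB8 (0.86). Before subtraction SERPINB2 and SERPINB8 had r = 0.95, and SERPINB1 and SERPINB12 had r = 0.91. After subtraction these 2 pairs had r = 0.97 and 0.98. These libraries share their groups and numbers, so the values describe these libraries only.

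Outside the family, the genes most like each member were ranked by Pearson r over the same 8 libraries among 7120 genes with a mean of at least 5 RPKM. SERPINB11 was most like CRISP3, a secreted cysteine-rich protein (r = 0.98), and CYB5A, cytochrome b5 (r = 0.97). CRISP3 averaged 23.3 ± 13.2 RPKM in HIF1A-KD and 1.07 ± 1.05 RPKM in shCtrl (SD, n = 4 each). SERPINB7 was most like WFDC12, a protease inhibitor of the whey acidic protein type (r = 0.98; 87.1 ± 54.2 RPKM in HIF1A-KD and 575 ± 430 RPKM in shCtrl), and ZFAS1, a noncoding RNA (r = 0.97). Since these genes were chosen for likeness to members that differ between the groups, their own group difference is given as a description. SERPINB3 was most like the RNA helicase gene DDX6 (r = 0.98) and HSPA4 (r = 0.97), and SERPINB12 most like CD24 and GSKIP (r = 0.97 each). SERPINB1 was most like ST14, which encodes the membrane serine protease matriptase (r = 1.00), and TSPAN13 (0.99). SERPINB2 was most like HNRNPH1 and HMGN1 (0.99 each). Close genes were GDI2 and FKBP5 for SERPINB5 (0.98 and 0.97), SRP19 for SERPINB8 (0.97), and SEC24A and CPE for SERPINB13 (0.98 and 0.97).

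The remaining clade B genes of the table passed neither fit. SERPINB6 averaged 20.3 ± 2.71 RPKM in HIF1A-KD and 23.1 ± 3.38 RPKM in shCtrl (SD, n = 4 each; log2 change −0.18, limma adjusted p = 0.921 unpaired). SERPINB9, an inhibitor of granzyme B, averaged 12.4 ± 4.58 RPKM in HIF1A-KD and 14.0 ± 5.03 RPKM in shCtrl (log2 change −0.18, limma adjusted p = 0.986 unpaired). SERPINB10 was too low to test.

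Of 14 serpins of other clades, 7 could be tested; the unpaired test called 0, and the paired fit called 2, both lower, against 1.83% of tested genes called and 1.09% called lower. SERPINA3, an inhibitor of chymotrypsin-like proteases, held 5.00, 6.05, 15.002 and 11.9 RPKM in HIF1A-KD libraries 1 to 4, against 19.7, 15.9, 28.1 and 33.7 RPKM in shCtrl 1 to 4 (log2 change −1.43, limma adjusted p = 0.308 unpaired, 0.0224 paired). SERPINA12, known as vaspin, held 2.31, 0.18, 0.041 and 0 RPKM in HIF1A-KD, against 27.4, 1.41, 0.38 and 0.51 RPKM in shCtrl (log2 change −2.58, limma adjusted p = 0.754 unpaired, 0.0287 paired). Its shCtrl mean rests on shCtrl 1. SERPINI1, or neuroserpin, went the other way, with 0.80, 0.55, 0.99 and 1.24 RPKM in HIF1A-KD, against 0.30, 0.24, 0 and 0.45 RPKM in shCtrl. SERPINI1 reached the filter of 0.5 RPKM through its HIF1A-KD libraries alone, so the lack of overlap between its groups was set by the filter. It passed neither fit (log2 change 1.71, limma adjusted p = 0.431 unpaired, 0.147 paired). SERPINE2 averaged 89.0 ± 12.1 RPKM in HIF1A-KD and 74.3 ± 5.00 RPKM in shCtrl (SD, n = 4 each) and passed neither fit.

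Among proteases that clade B serpins are known to inhibit, 7 of 17 listed in the table could be tested and 0 passed either fit. The median log2 change of the 7 was −0.22, with 1 estimate above 0, while 58.7% of all tested genes had estimates above 0. Under median-of-ratios scaling it was again 1 of the 7, against 5823 of 11899 tested genes. CTSV, the cathepsin V gene, averaged 113 ± 57.5 RPKM in HIF1A-KD and 165 ± 55.7 RPKM in shCtrl (SD, n = 4 each; log2 change −0.62, limma adjusted p = 0.799 unpaired, 0.136 paired) and was lower at 4 of 4 numbers. CTSL, the cathepsin L gene, averaged 35.6 ± 11.1 RPKM in HIF1A-KD and 39.7 ± 7.97 RPKM in shCtrl (log2 change −0.18). The leukocyte proteases ELANE, PRTN3 and GZMB and the mast cell chymase gene CMA1 were listed at 0 in every library. CTSS, the cathepsin S gene, was below the filter, with 20, 170, 47 and 34 recovered reads in HIF1A-KD libraries 1 to 4, against 3, 18, 0 and 5 in shCtrl 1 to 4. By RPKM its groups did not overlap (0.11, 0.63, 0.24 and 0.22 in HIF1A-KD, against 0.015, 0.10, 0 and 0.025 in shCtrl), and in fits without the filter the limma adjusted p was 0.430 unpaired and 0.139 paired. CTSK, the cathepsin K gene, also below the filter, was higher in HIF1A-KD at 4 of 4 numbers with overlapping groups. At number 1 CTSK had 25 recovered reads in HIF1A-KD and 26 in shCtrl (RPKM ratio 1.02). PRSS1, of the same list and below the filter, was lower at 4 of 4 numbers. Its RPKM was 0.054, 0.21, 0 and 0.032 in HIF1A-KD 1 to 4, against 0.18, 0.96, 0.79 and 1.90 in shCtrl 1 to 4. In fits without the filter the limma adjusted p of PRSS1 was 0.375 unpaired and 0.193 paired, and that of CTSK 0.847 and 0.423. Among tested genes, which leave out CTSS, CTSK and PRSS1, 3.27% lay wholly higher in HIF1A-KD. At all 4 numbers 18.6% of tested genes were higher and 10.7% lower. In the plasminogen activation list 7 of 8 genes were tested and 0 passed either fit, with 2 estimates above 0.

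Genes beside the cluster were also read. Of 10 genes of the table within 1000000 bases of its span on chromosome 18, 4 could be tested and 0 passed either fit. VPS4B, a membrane-scission ATPase gene, averaged 90.8 ± 16.7 RPKM in HIF1A-KD and 70.1 ± 17.4 RPKM in shCtrl (SD, n = 4 each; log2 change 0.39, limma adjusted p = 0.0904 paired). Of the 8 squamous markers, the keratins KRT4 and KRT13 stood higher in HIF1A-KD at each number without passing either fit (log2 changes 2.15 and 2.37, limma adjusted p = 0.0786 and 0.116 paired). At number 3 KRT13 held 721 RPKM in HIF1A-KD and 676 RPKM in shCtrl. The other keratins of the list changed little (log2 change −0.06 for KRT5, 0.13 for KRT14 and −0.14 for KRT6A). The median log2 change of the 8 markers was 0.11. The part of KRT4 and KRT13 in the serpin values was not tested.

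In the authors' deposited table, made from the same libraries and so no independent support, 5 of the 10 members have an adjusted p under 0.05, against 9.02% of 13627 genes. Of these, 4 are higher (3.94% of genes) and 1 is lower (5.08%). The authors' deposited table gives linear ratios of HIF1A-KD to shCtrl of 4.15 for SERPINB3, 26.9 for SERPINB4, 8.67 for SERPINB11, 2.65 for SERPINB12 and 0.39 for SERPINB7. The adjusted p in the authors' deposited table was 3.24e-11 for SERPINB3, 7.52e-07 for SERPINB4, 2.76e-13 for SERPINB11, 0.0413 for SERPINB12 and 2.38e-10 for SERPINB7. A second set of ratios, headed as adjusted in the authors' deposited table without a stated method, was smaller for the genes above 1. It gave 2.99 for SERPINB3, 3.29 for SERPINB4, 4.69 for SERPINB11 and 1.81 for SERPINB12, and 0.42 for SERPINB7. The other 5 members lay between 0.331 and 0.971 in the authors' deposited table. Its direction was checked on recovered reads scaled by median of ratios, whose ratio of HIF1A-KD to shCtrl means lay within 1% of the deposited ratio for 100% of 13453 genes with a mean of at least 10 scaled reads.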

How the data were processed

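RNA of 8 libraries was analysed, grouped by the sample titles. The authors' deposited table carries RPKM although its name says raw counts; multiplying by gene length gave whole multiples of a per-library step within 0.01 read for 100% of genes with a readable length (597 genes have none), which yielded the recovered reads. Per the submitters' processing notes, the tools included TopHat2 2.0.13, Bowtie2 2.2.3.0 and HTSeq 0.6.1. Builds hg19 and hg38 are both named; the table's haplotype contig names are those of hg19. Not given in the sources used here: strand use in counting. A second deposited table holds the authors' fold ratio, log2 ratio and p-value; its tool is not named.

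The main test was limma 3.58.1 (R 4.3.3) with trend and robust moderation on log2(RPKM + 0.1), two-sided and unpaired, over the 11899 genes reaching 0.5 RPKM in 4 or more libraries. P-values were adjusted by Benjamini and Hochberg over all tested genes. The pseudocount understates changes of low genes. Same-numbered libraries shared deviations from the group means (for numbers 1 to 4 the correlation over genes was 0.754, 0.730, 0.252 and 0.257, each over 0.1). The number was therefore taken as pairing them; the labels do not say so. For numbers 3 and 4 this is uncertain, since HIF1A-KD 3 correlated more with shCtrl 4 (0.613) and HIF1A-KD 4 with shCtrl 3 (0.463). SERPINB4, below the filter, had an exact permutation test. Fits were tested on simulated counts in which same-numbered libraries shared deviations, so this could not test the pairing itself. Depth limits low genes, and no intervals were computed for single libraries. Alternatives changed the pseudocount, filter, scaling, moderation, block and libraries, and ran limma-voom on recovered reads. Members and lists were chosen with earlier results of these data known. Named genes were HIF1A, the members, up to 4 per list (called ones, then the most abundant) and the 2 most like genes per tested member; any other list gene named was chosen after its values were seen. Some genes that this rule or the lists name are not reported here.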

Additional observations from a re-analysis of the deposited data

How the results depend on the processing

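Unpaired, 0 members passed as reported and in every unpaired alternative except with the split of libraries 1 and 2 from 3 and 4 as a term, which called 2 (SERPINB7 and SERPINB11) and 102 genes in all. With the replicate block 3 members and 218 genes passed. Added after the data were seen, the block with median-of-ratios scaling, with limma-voom or with a pseudocount of 1 called 3 members each and 256, 343 and 231 genes, and the block without the filter called 1 member (SERPINB11) and 23 genes. Leaving out each library gave 0 members and 0 to 3 genes unpaired, and 0 to 3 members and 1 to 239 genes with the block (33, 204 and 180 genes without HIF1A-KD 1, 3 and 4, and 20 and 213 without shCtrl 1 and 3). The block called 0 members without HIF1A-KD 2 or shCtrl 2; the cause was not tested. Against 5 genes as reported, 3 passed with a pseudocount of 1 or 0.01, with limma-voom or without trend and robust moderation, 1 without the filter, 8 with median-of-ratios scaling and 0 in libraries 1 and 2 alone. Median-of-ratios scaling moved the median log2 change of all genes to −0.01, against 0.06. For SERPINB4 the log2 difference of 3.23 had p = 0.125 with numbers paired (exact sign permutation, the smallest that 4 pairs allow), was 2.00 in libraries 1 and 2 and 4.46 in libraries 3 and 4 (p = 0.333 each, the smallest possible), and ran from 2.81 to 3.82 without each library, where p was 0.0571 without any 1 shCtrl library and 0.0286 without any 1 HIF1A-KD library. Changes near 0 reversed in sign without passing any test: SERPINB2 was 0.037 in libraries 3 and 4 and −0.37 to 0.12 without single libraries. SERPINB5 was −0.063 to 0.32, below 0 only without shCtrl 1. SERPINB8 was −0.023 with median-of-ratios scaling, with or without the block, −0.13 in libraries 1 and 2, −0.095 to 0.20 without single libraries, and −0.047 with the block without HIF1A-KD 3 or shCtrl 3. SERPINB13 was −0.063 with that scaling, with or without the block, −0.20 to 0.29 without single libraries, and with the block −0.13 without either library 2 and −0.023 without either library 4. SERPINB3, SERPINB7, SERPINB11 and SERPINB12 kept their direction in all 31 alternatives each.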
